A study of Mus musculus with 30 samples.

Results

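The genes described here are 10 members of the bone morphogenetic protein (BMP) pathway and of the Id family: the ligands Bmp2 and Bmp4, the receptor Bmpr1a, the inhibitors Smad6 and Bambi, and the target genes Id1, Id2, Id3, Msx1 and Msx2. They were chosen by name, with earlier results of these data known, and each of the 10 is 1 of the 22477 genes in the deposited expression table. Polyadenylated RNA was sequenced from mouse secondary iPSCs. These pluripotent cells hold transgenes for Oct4, Sox2, Klf4 and cMyc (OSKM) that doxycycline (dox) switches on, GFP placed at the Nanog locus as a reporter, and RFP made constitutively in the nucleus. The 30 samples make up 15 conditions of 2 replicates each. Of these conditions, 7 follow the cells at 0, 24, 36, 48, 60, 72 and 96 h of 2i/LIF withdrawal, during which they differentiate without a directing factor. The other 8 are cells that differentiated for 0, 24, 48 or 96 h and were then re-seeded for 48 h in serum/LIF, without dox (–dox) or with dox (+dox) to switch on OSKM. Every condition comes from the same kind of iPSC, so the –dox cells also hold the OSKM transgenes and the reporters.

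BMPs are secreted ligands of the TGF-beta superfamily. They bind receptor complexes that contain a type I receptor such as BMPR1A, which phosphorylates the receptor-regulated SMAD proteins SMAD1, SMAD5 and SMAD9. These join SMAD4 in the nucleus and activate target genes, of which the Id genes are the best known. ID proteins have a helix-loop-helix domain but no DNA-binding region, and they hold E proteins such as TCF3 away from DNA. In naive mouse embryonic stem cells serum or BMP4 keeps Id genes on and, together with LIF, supports self-renewal, whereas after exit from pluripotency BMP favours surface ectoderm, mesoderm and extraembryonic fates over neural fate. MSX1 and MSX2 are homeodomain proteins, and SMAD6 and BAMBI dampen the signal at the receptor.

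Each value is a single FPKM (fragments scaled to transcript length and to the size of the library) that combines both replicates of a condition, so levels may be compared between genes, but no value carries a spread and no difference could be tested. A gene is said to rise or fall here when its 2 values differ by at least 2-fold and the higher is at least 1 FPKM, and the share of all genes that did the same is given as the background. Summed over all genes, a condition held 603278 to 832607 FPKM. Steps between the lowest values placed 3 steps, the level below which a value has little behind it, at 0.0662 to 0.106 FPKM for a 2 kb transcript in most conditions and at 0.0313 to 0.0363 FPKM in the deeper cells re-seeded from 0 and 24 h. In these bulk samples fewer cells with a transcript and less of it per cell cannot be told apart. The pluripotency markers Pou5f1, Sox2, Nanog, Esrrb, Klf4, Zfp42 and Tfcp2l1 summed to 1241.6 FPKM before withdrawal and to 87.1 after 96 h.

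The ligands had different time courses. Bmp4 (ENSMUSG00000021835, chromosome 14, 46383520 to 46390669, minus strand, mm10) had values of 0.840, 6.11, 3.04, 1.73, 1.48, 0.918 and 3.68 FPKM over the 7 timepoints from 0 to 96 h. It was thus 7.27-fold higher at 24 h than at 0 h, declined to near its first value by 72 h and was 4.01-fold higher again at 96 h than at 72 h. Bmp4 overlaps the plus-strand genes Gm15217 and Gm15222, which are listed at up to 0.765 and 3.62 FPKM, both in the 96 h –dox cells, and since the strand used in counting is not stated, their reads could not be told apart from those of Bmp4. Bmp2 (ENSMUSG00000027358, chromosome 2, 133552159 to 133562885, plus strand) was between 0 and 0.138 FPKM through 72 h, at no more than 7.80 steps, and reached 1.42 FPKM at 96 h. Its value of 0 was at 48 h.

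The receptor Bmpr1a (ENSMUSG00000021796, chromosome 14, 34410734 to 34503341, minus strand) had the smallest range of the 10 genes, both in the time course and over the 15 conditions. It lay between 15.7 and 16.2 FPKM until 60 h and reached 19.5 at 72 h and 23.6 FPKM at 96 h. No 2 of these values differed by 2-fold. Bmpr1a overlaps the plus-strand gene Gm17110, which was listed at no more than 1.24 FPKM. Of the SMAD genes that carry the signal, Smad9 was at no more than 0.753 FPKM in any condition, Smad1 went from 6.68 FPKM at 0 h to 12.0 at 96 h, Smad5 stayed between 7.38 and 10.5, and Smad4 between 24.0 and 32.3 FPKM in the time course.

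The inhibitors were not among the genes that rose at 96 h. Smad6 (ENSMUSG00000036867, chromosome 9, 63953076 to 64022059, minus strand), which encodes an inhibitory SMAD and is itself a known BMP target, was at 3.71, 2.30, 0.752, 0.868, 2.24, 3.60 and 2.73 FPKM from 0 to 96 h. It was 4.93-fold lower at 36 h than at 0 h and was close to its first level again at 72 h. Bambi (ENSMUSG00000024232, chromosome 18, 3507923 to 3516404, plus strand), a pseudoreceptor without kinase activity, lay between 1.92 FPKM at 72 h and 3.99 FPKM at 24 h. At 96 h Smad6 was at 0.74 times and Bambi at 0.94 times the 0 h value.

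The 3 Id genes lay between 4.18 and 8.55 FPKM at 0 h and then took separate courses until 96 h, when each had its highest value of the time course. Id1 (ENSMUSG00000042745, chromosome 2, 152736251 to 152737410, plus strand) had values of 8.55, 16.2, 3.51, 3.75, 4.53, 5.96 and 80.9 FPKM over the 7 timepoints. Id3 (ENSMUSG00000007872, chromosome 4, 136143497 to 136145755, plus strand) was at 4.18, 29.5, 40.9, 36.3, 13.7, 13.8 and 123.1 FPKM at the same times. Id3 therefore was up 9.79-fold at 36 h while Id1 was down 2.44-fold. The ratio of Id1 to Id3 went from 2.05 at 0 h to 0.0858 at 36 h and 0.657 at 96 h.

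Id2 (ENSMUSG00000020644, chromosome 12, 25093799 to 25097140, minus strand) was at 6.96, 8.35, 5.22, 5.54, 6.91, 11.5 and 39.0 FPKM from 0 to 96 h, with no 2-fold change from 0 h before 96 h. Msx1 (ENSMUSG00000048450, chromosome 5, 37820485 to 37824583, minus strand) stayed at or below 1.00 FPKM through 72 h and was at 3.93 FPKM at 96 h. Msx2 (ENSMUSG00000021469, chromosome 13, 53466884 to 53473074, minus strand) stayed at or below 0.218 FPKM and was at 2.08 FPKM at 96 h. Both Msx genes were thus low in absolute terms in every condition of the time course, and their largest change fell in the last interval.

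**Figure D1:**
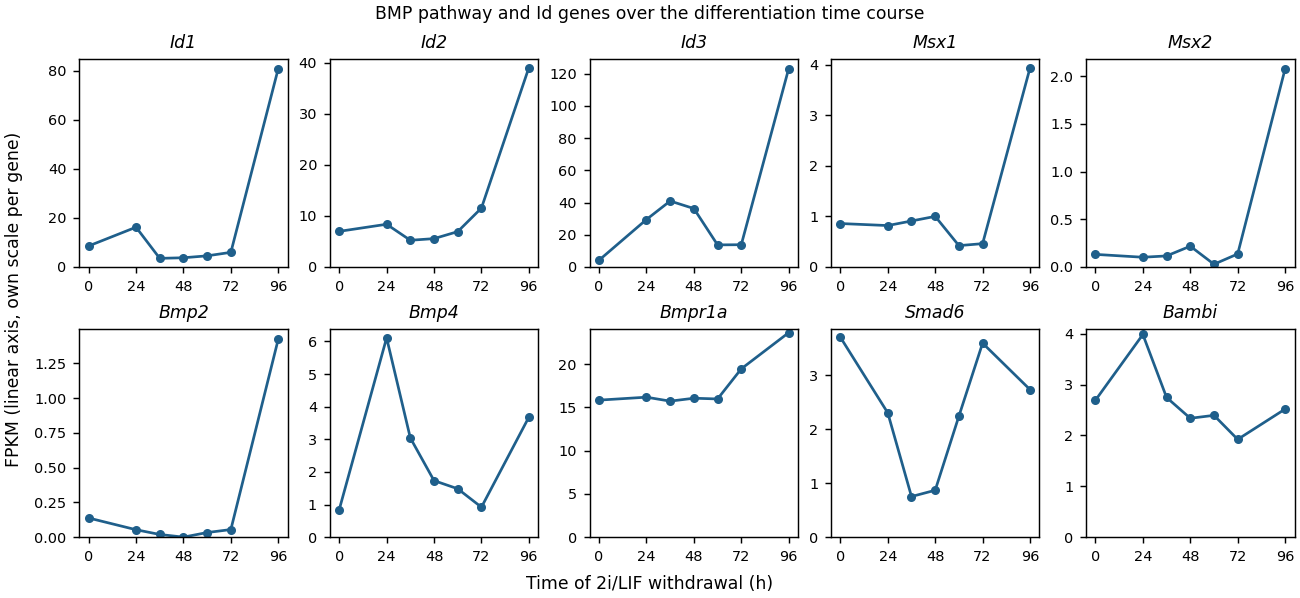
FPKM of the 10 genes (vertical axis, linear, with its own scale for each gene) against the time of 2i/LIF withdrawal in h, where each point is 1 value that combines both replicates and lines join neighbouring times. Id1, Id2, Id3, Msx1, Msx2 and Bmp2 turn upward between 72 and 96 h, Bmp4 and Bambi have their highest value at 24 h, and Smad6 dips to 0.752 FPKM at 36 h.

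Counted against 0 h, between 1 and 4 of the genes changed at each time before 96 h, and all these comparisons share the 0 h condition. At 24 h Bmp4 and Id3 rose among the 7 genes that reached 1 FPKM in either condition, where 8.64% of all genes tested rose, and 0 fell, where 14.3% fell. Bmp4 and Id3 were also the 2 that rose at 36 h, against 11.3% of all genes, and at 48 h, against 12.1%. Id1 and Smad6 were the 2 that fell at both times, against 16.8% of all genes at 36 h and 17.0% at 48 h.

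Later, Id3 remained 3.27-fold above 0 h at 60 h and 3.30-fold above it at 72 h, and it was the 1 gene that rose at these times, among 7 and 6 genes tested, against 13.0% and 15.0% of all genes. No member fell at 60 or 72 h, where 16.1% and 15.9% of all genes fell. At 96 h all 10 genes were tested and 7 rose, namely Bmp2, Bmp4, Id1, Id2, Id3, Msx1 and Msx2, against 16.8% of all genes, and 0 fell, against 16.4%. Bmp2, Bmp4, Msx1 and Msx2 were under 1 FPKM at 0 h, and with 1 FPKM required in both conditions or a minimum of 5 FPKM the count was 3. The median log2 ratio of the 10 genes at 96 h was 2.34, beside -0.02 over all genes tested. At the earlier times the median of the genes tested lay between -0.20 at 48 h and 0.57 at 24 h, beside medians over all genes of which the one farthest from 0 was -0.04 at 72 h. Id3 was 29.4-fold, Id1 9.46-fold and Id2 5.60-fold higher than at 0 h. Between any 2 timepoints 9 of the 10 genes changed, all but Bmpr1a, where 60.7% of all genes did.

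The fibroblast list (Col1a1, Col3a1 and 13 others), included because the iPSCs were maintained on mouse embryonic fibroblast feeders, was high in the 0 h reference. The study's methods, as written for its colony assay, used gelatin during withdrawal and feeders again after re-seeding, and whether the sequenced cells were grown likewise is not stated. Its 15 genes summed to 859.7 FPKM at 0 h, 84.1 at 24 h and 26.4 to 47.5 from 36 to 96 h, and Col3a1 went from 200.8 FPKM at 0 h to 12.0 at 24 h and 1.47 at 96 h. Thy1 of this list went the other way at first, from 4.01 FPKM at 0 h to 17.7 at 48 h. The part of the fibroblast list in the comparisons with 0 h was not tested. In the interval from 72 to 96 h, which does not use that reference, the list summed to 28.9 and 39.3 FPKM. Over the same interval the pluripotency list went from 227.1 to 87.1 FPKM. The trophoblast list (Cdx2, Elf5, Krt7, Hand1, Tfap2a and Gata3) went from 7.17 to 19.3 FPKM, mostly through Krt7, which went from 3.51 to 14.4. The neurectoderm list (Sox1, Pax6, Zic1, Nes and Hes5) went from 30.5 to 33.9 FPKM, with Sox1 up from 4.16 to 13.3 but Nes down from 23.0 to 14.6. Their part in the changes of that interval was not tested.

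That interval was compared after the values had been seen. The same 7 genes rose from 72 to 96 h, against 5.10% of all genes tested, and 0 of the 10 fell, against 5.01%. Id1 was 13.6-fold higher, the change ranked 17 from the top of 12759 genes, and Id3, 8.92-fold higher, ranked 24. Id2 was 3.38-fold and Bmp4 4.01-fold higher. For Msx1, Msx2, Bmp2 and Bmp4 the 72 h value was under 1 FPKM, so these ratios rest on a low reference, and Id1, Id2 and Id3 are the 3 that stood above 1 FPKM at both times. The median log2 ratio of the 10 genes was 2.55, beside 0.02 over all genes tested. In all, 7 of the 10 genes had their highest value of the time course at 96 h, these being Bmp2, Bmpr1a, Id1, Id2, Id3, Msx1 and Msx2, where 22.7% of all genes did, a count that was also chosen after the values had been seen.

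Re-seeding in serum/LIF without dox went with much higher Id1 and Id2 at every starting time. Id1 was at 58.7 FPKM in the 0 h –dox cells, 89.7 in the 24 h, 51.1 in the 48 h and 275.0 in the 96 h –dox cells, which is 6.87, 5.53, 13.6 and 3.40 times the value of the cells before re-seeding. Id2 was at 23.8, 65.6, 104.3 and 164.0 FPKM, or 3.42, 7.85, 18.8 and 4.21 times the value before. These 2 genes rose at all 4 starting times. Id3, in contrast, was at 5.38, 48.9, 30.6 and 320.9 FPKM and passed 2-fold at 96 h alone, with ratios of 1.29, 1.66, 0.85 and 2.61. The medium, the 48 h of further culture, re-plating and, if the protocol of the colony assay was followed, the feeders differ together between these conditions and cannot be told apart.

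**Figure D2:**
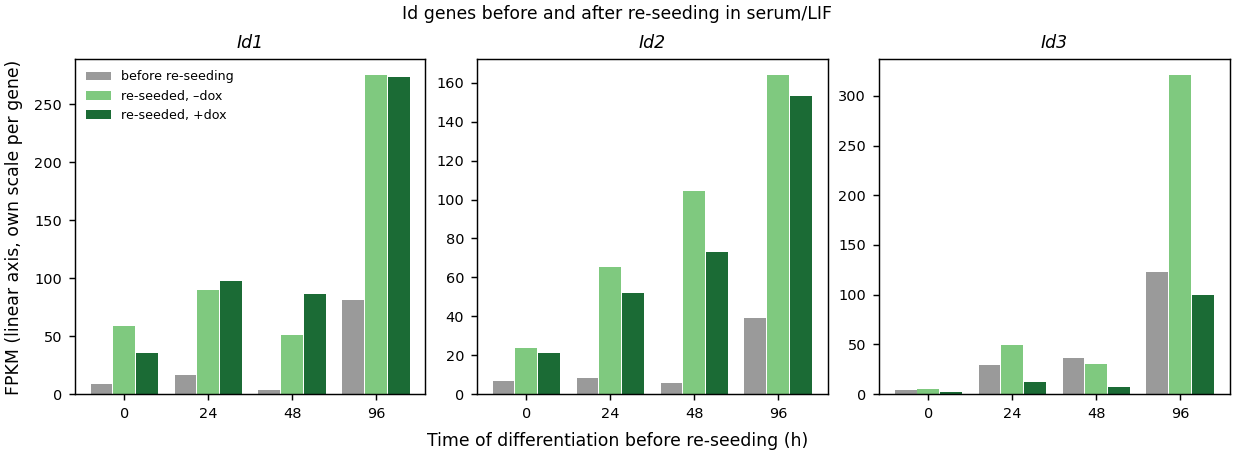
FPKM of Id1, Id2 and Id3 (vertical axis, linear from 0, own scale per gene) by the time of differentiation in h, with 1 bar each for the cells before re-seeding, re-seeded –dox and re-seeded +dox, and no error bars since each bar is 1 combined value. The –dox and +dox bars of Id1 at 96 h are nearly level at 275.0 and 273.4 FPKM, while the +dox bar of Id3 is the lowest of its group at each time, down to 99.5 FPKM at 96 h beside 320.9 in –dox.

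Among differences that passed the 2-fold rule, those of Bmp4 on re-seeding were in both directions, depending on the starting time. It was at 8.87 FPKM in the 0 h –dox cells against 0.840 before (10.6-fold higher), at 1.21 in the 24 h –dox cells against 6.11 before (5.07-fold lower), at 4.48 in the 48 h –dox cells against 1.73 before (2.59-fold higher) and at 19.3 in the 96 h –dox cells against 3.68 before (5.24-fold higher). Bmp2 was at 0.571 FPKM in the 48 h and 9.71 in the 96 h –dox cells, the latter 6.81 times its 96 h value before re-seeding. Msx2 reached 1.43 FPKM in the 24 h, 1.21 in the 48 h and 24.9 in the 96 h –dox cells, against 0.102, 0.218 and 2.08 before. Msx1 passed 1 FPKM in the –dox cells of 96 h alone, at 6.66 FPKM.

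By count, 3 of 7 genes rose on re-seeding from 0 h (Bmp4, Id1 and Id2, against 12.0% of all genes) and 0 fell (against 10.1%). From 24 h, 3 of 8 rose (Id1, Id2 and Msx2, against 14.9%) and Bmp4 was the 1 that fell (against 10.6%). From 48 h, 4 of 8 rose (Bmp4, Id1, Id2 and Msx2, against 15.3%) and 0 fell (against 11.5%). From 96 h, 8 of 10 rose, all but Bmpr1a and Msx1, against 12.4%, and 0 fell, against 11.2%. Bmp4 from 0 h and Msx2 from 24 and 48 h were under 1 FPKM before re-seeding. They were tested through their –dox value alone and could not have been called as falls. With 1 FPKM required in both conditions, rises summed over the 4 starting times were 15 in place of 18. The median log2 ratios of the genes tested were 0.39, 0.77, 1.17 and 1.89 for the 4 starting times, beside -0.01, -0.05, -0.01 and 0.01 over all genes tested. Smad6 was 3.22-fold and Bambi 4.04-fold higher in the 96 h –dox cells than before re-seeding, so that here the inhibitors rose with the ligands.

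All 10 genes had their highest value of the 15 conditions in the 96 h –dox cells, where 17.3% of all genes did. This count was chosen after the values had been seen. Over the 15 conditions Bmpr1a ranged from 10.96 to 32.9 FPKM, and Id3 from 2.38 to 320.9 FPKM, or 134.6-fold. The trophoblast list summed to 217.4 FPKM in the same cells, beside 19.3 FPKM before re-seeding and 79.7 in the 96 h +dox cells, with Krt7 at 157.6 and Hand1 at 38.2 FPKM. Krt7 was at 65.9 FPKM in the 96 h +dox cells. Cdx2 and Elf5 of this list were at 1.27 and 3.44 FPKM in the 96 h –dox cells. The fibroblast list summed to 171.7 FPKM there, beside 39.3 before re-seeding, 32.0 in the 96 h +dox cells and 14.1 to 32.3 in the other re-seeded conditions. Col1a2 alone was at 86.0 FPKM there. Against the cells before re-seeding, 10 of its 13 genes tested rose, beside 12.4% of all genes, and 3 fell (Thy1, Dcn and Twist1), beside 11.2%. The part of either list in the levels of the 10 genes was not tested.

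**Figure D3:**
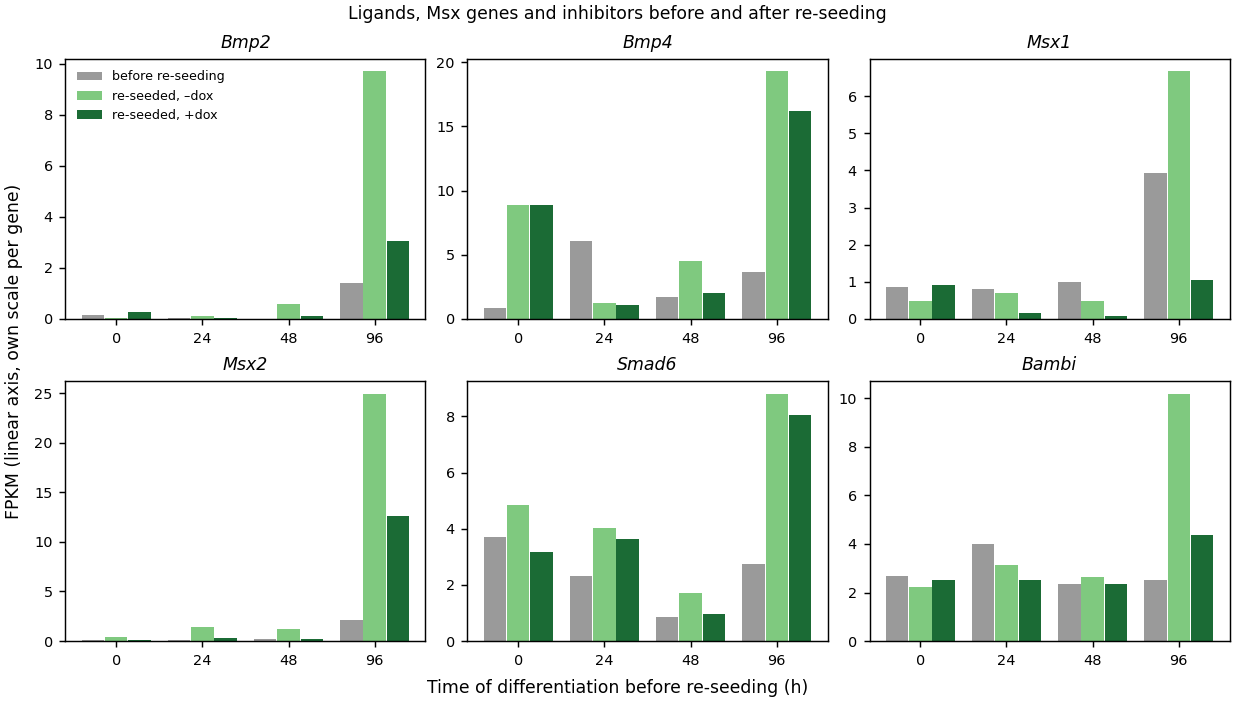
FPKM of Bmp2, Bmp4, Msx1, Msx2, Smad6 and Bambi (vertical axis, linear from 0, own scale per gene) by the time of differentiation in h before re-seeding, with 1 bar each for the cells before re-seeding, re-seeded –dox and re-seeded +dox. The 96 h –dox bar is the highest of each panel, from 6.66 FPKM for Msx1 to 24.9 for Msx2, and for Bmp4 the 24 h bar before re-seeding stands above both re-seeded ones.

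Because these genes were high together in 1 condition, the stretch before the start site was read for SMAD motifs. RefSeq promoter windows of 250 bases before to 50 bases after the start (GRCm38.p6, the same assembly as mm10) were found for 7 of the 10 genes, namely Bmp4, Bmpr1a, Id2, Id3, Msx1, Msx2 and Smad6. Their GC content ran from 60.0 to 79.3%, beside a median of 52.7% over all 32851 windows. Shown are the ligand, an Id gene, an Msx gene and the inhibitor, 5′ to 3′ on the strand of the gene and limited to bases before the start that no annotated exon covers. Capitals mark the GC-rich BMP-SMAD motif GGCGCC, a palindrome, and the SMAD box GTCT, read on both strands and so also as AGAC. The stretches are chr14:46390670-46390919, chr12:25096254-25096342, chr5:37824586-37824835 and chr9:64022060-64022309, all on the minus strand.
Bmp4: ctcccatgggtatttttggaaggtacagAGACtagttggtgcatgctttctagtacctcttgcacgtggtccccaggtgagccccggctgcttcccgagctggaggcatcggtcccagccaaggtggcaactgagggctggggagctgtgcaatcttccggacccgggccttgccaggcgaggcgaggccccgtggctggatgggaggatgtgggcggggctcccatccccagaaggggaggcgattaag
Id2: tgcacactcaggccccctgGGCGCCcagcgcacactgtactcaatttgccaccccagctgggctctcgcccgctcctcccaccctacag
Msx1: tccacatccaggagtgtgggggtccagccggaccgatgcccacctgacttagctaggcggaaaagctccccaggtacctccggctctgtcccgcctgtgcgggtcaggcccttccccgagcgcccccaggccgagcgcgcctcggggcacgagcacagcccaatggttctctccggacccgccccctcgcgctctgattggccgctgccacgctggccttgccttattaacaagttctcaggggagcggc
Smad6: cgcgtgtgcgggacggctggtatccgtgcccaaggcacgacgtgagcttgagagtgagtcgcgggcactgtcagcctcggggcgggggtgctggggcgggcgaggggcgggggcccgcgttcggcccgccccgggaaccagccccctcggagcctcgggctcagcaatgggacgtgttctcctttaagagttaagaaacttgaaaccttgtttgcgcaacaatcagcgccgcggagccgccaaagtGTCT

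GGCGCC was in 2 of the 7 windows, those of Id2 at -231 and Bmpr1a at -198 from the RefSeq start, and in 11.9% of all windows. For both genes this start lies inside the gene span given above, downstream of its annotated 5′ end, and so do these 2 motifs. The stretch shown for Id2 runs from -250 to -162, where it stops at an annotated exon. GTCT or AGAC was in 6 of the 7 windows, all but that of Msx1, and in 88.0% of all windows. Counting from the start site, the copy shown for Bmp4 begins at -222 and that for Smad6 at -4. Over the 15 conditions Id2 ranged 31.4-fold, from 5.22 to 164.0 FPKM, and Bmpr1a from 10.96 to 32.9 FPKM. Whether the motif they share bears on either level was not tested. A match is a string of letters and not a measured site.

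OSKM induction was compared at each starting time as +dox over –dox, with the –dox cells the same as in the comparison above. Pou5f1, the gene for Oct4, whose reads from the transgene and the endogenous locus could not be told apart, was at 425.4, 261.9, 203.5 and 9.95 FPKM in the +dox cells from 0, 24, 48 and 96 h, beside 359.6, 213.5, 72.6 and 2.63 in the –dox cells. Id3 was lower with dox at all 4 starting times. It was at 2.38 against 5.38 FPKM (2.26-fold lower) from 0 h, 12.5 against 48.9 (3.91-fold) from 24 h, 6.68 against 30.6 (4.59-fold) from 48 h and 99.5 against 320.9 (3.23-fold) from 96 h. It was the 1 gene of the 10 that fell at every starting time.

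Id1 and Id2 did not pass 2-fold with dox at any starting time. Id1 was at 35.7, 97.7, 86.1 and 273.4 FPKM in the +dox cells from 0, 24, 48 and 96 h, or 0.61, 1.09, 1.69 and 0.99 times the –dox value. Id2 was at 21.3, 51.9, 73.2 and 153.0 FPKM, or 0.89, 0.79, 0.70 and 0.93 times the –dox value, below it each time by less than 2-fold. The ratio of Id1 to Id3 was 15.0, 7.82, 12.9 and 2.75 in the +dox cells, beside 10.9, 1.83, 1.67 and 0.857 in the –dox cells.

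The Msx genes fell with dox at some starting times. Msx1 was at 1.05 FPKM in the 96 h +dox cells against 6.66 in –dox, 6.35-fold lower, and under 1 FPKM in every other re-seeded condition, where from 0 h it was at 0.912 with and 0.473 without dox. Msx2 was at 0.347 against 1.43 FPKM from 24 h (4.13-fold lower), at 0.177 against 1.21 from 48 h (6.85-fold lower) and at 12.6 against 24.9 from 96 h, a 1.98-fold difference just short of the 2-fold threshold. Among the ligands, Bmp4 was 2.18-fold lower with dox from 48 h (2.05 against 4.48 FPKM) and at 16.2 against 19.3 FPKM from 96 h. Bmp2 was at 3.05 against 9.71 FPKM from 96 h, 3.18-fold lower.

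Of the inhibitors, Bambi was at 4.36 against 10.2 FPKM from 96 h, 2.34-fold lower, and did not pass 2-fold at the other times. Smad6 was between 0.56 and 0.91 times its –dox value at the 4 times and passed 2-fold at none, and Bmpr1a was between 0.77 and 1.14 times. The secreted antagonist gene Nog, which is outside the rule for named genes and was picked after its values were seen, was at 4.95 FPKM in the 48 h –dox and 0.878 in the 48 h +dox cells, but at 6.10 and 8.80 FPKM from 96 h.

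**Figure D4:**
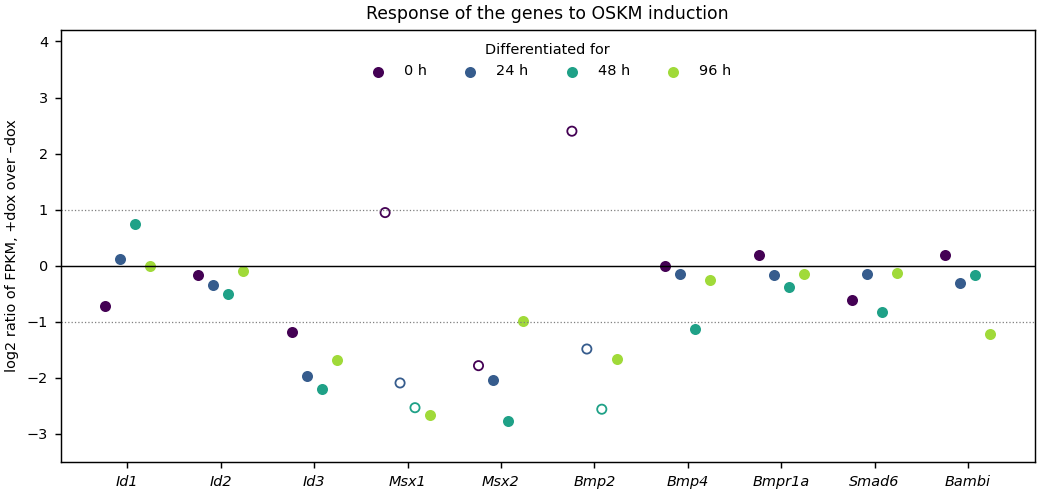
log2 ratio of FPKM in +dox over –dox cells (vertical axis) for each of the 10 genes, with 1 point for each time of differentiation before re-seeding. Filled points have a higher value of at least 1 FPKM, open points do not and were not counted, and dotted lines mark a 2-fold difference. The 4 points of Id3 lie between -1.17 and -2.20, below the lower line, while those of Id1 lie on both sides of 0, from -0.72 to 0.75.

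By count, 0 of the genes rose with dox at any starting time, against 3.62% of all genes from 0 h, 2.87% from 24 h, 6.56% from 48 h and 6.67% from 96 h. Falls numbered 1 of 7 from 0 h (Id3, against 5.61% of all genes), 2 of 8 from 24 h (Id3 and Msx2, against 3.40%), 3 of 8 from 48 h (Bmp4, Id3 and Msx2, against 6.46%) and 4 of 10 from 96 h (Bmp2, Id3, Bambi and Msx1, against 11.1%). Msx2 was under 1 FPKM in the +dox cells from 24 and 48 h, so it was tested there through its –dox value alone. With 1 FPKM required in both conditions, falls numbered 1 from 24 h and 2 from 48 h. With a minimum of 5 FPKM they numbered 1 from each. The median log2 ratios of the genes tested were -0.16, -0.23, -0.67 and -0.62, beside 0.05, 0.02, -0.02 and -0.01 over all genes tested. The marker lists that moved at 96 h were given above: the fibroblast list was at 32.0 FPKM with dox and 171.7 without, and the trophoblast list at 79.7 and 217.4. Their part in the 96 h differences was not tested. From 24 h, where Id3 was 3.91-fold lower with dox, the fibroblast list was at 24.5 with and 18.2 FPKM without dox. Its gene Thy1 made up 10.1 and 5.75 FPKM of these sums. The trophoblast list was at 8.2 and 20.3 FPKM, with Krt7 at 3.32 and 13.2. From 48 h, where Id3 was 4.59-fold lower, the fibroblast list was at 25.7 with and 32.3 FPKM without dox, with Thy1 at 8.20 and 1.55. There the trophoblast list was at 7.1 and 26.2 FPKM, with Krt7 at 4.23 and 18.0. The mesoderm and endoderm list was at 4.0 and 12.3, and the pluripotency list at 505.0 and 187.9 FPKM. The pluripotency sums hold Pou5f1, Sox2 and Klf4, whose transgene reads could not be told apart. Pou5f1 was at 203.5 and 72.6, Sox2 at 87.8 and 43.4, and Klf4 at 14.6 and 4.68 FPKM. Of the other genes, Nanog was at 48.6 and 32.9 and Esrrb at 56.2 and 8.31. Zfp42 was at 62.9 and 18.1 and Tfcp2l1 at 31.5 and 7.84. The part of these lists in the 24 and 48 h differences was not tested.

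Other genes of the pathway, 57 in the table of 59 listed, were counted in the same way. At 96 h against 0 h, 8 of 35 tested rose and 12 fell, beside 16.8% and 16.4% of all genes, with a median log2 ratio of 0.12. From 72 to 96 h, 7 of 29 rose and 2 fell, beside 5.10% and 5.01%, with a median of 0.35. On re-seeding from 96 h without dox, 21 of 40 rose and 2 fell, beside 12.4% and 11.2%, with a median of 1.16. From 0 h, 2 of 33 rose and 13 fell, beside 12.0% and 10.1%, with a median of -0.57. With dox, 3 of 39 rose and 15 fell from 96 h, beside 6.67% and 11.1%, with a median of -0.42, and 2 of 30 rose and 2 fell from 0 h, beside 3.62% and 5.61%, with a median of 0.31. The medians over all genes are those given above for each comparison.

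Among the other ligands, Bmp7 was at 6.51, 0.577 and 26.1 FPKM after 0, 24 and 96 h, the last being the highest level of any listed ligand in the time course. Bmp8b climbed from 0.149 FPKM at 0 h to 2.52 at 96 h and was at 7.98 in the 96 h –dox and 29.5 FPKM in the 96 h +dox cells. Of the 4 other ligands tested with dox from 96 h, it was the 1 that rose, beside 6.67% of all genes. In that comparison 2 fell, beside 11.1%. Bmp8b was lower with dox from 24 h, at 2.01 against 3.84 FPKM, and from 48 h, at 7.01 against 10.1 FPKM. Among the co-receptors, Eng went from 18.8 FPKM at 0 h to 2.28 at 96 h and 0.304 in the 96 h –dox cells, and Rgma from 9.08 at 0 h to 2.16 at 24 h and 17.6 at 96 h. Smad7, the other inhibitory SMAD gene, was at 17.4, 2.56 and 4.49 FPKM after 0, 48 and 96 h, and at 30.6 FPKM in the 0 h –dox cells. Skil, which encodes a SMAD corepressor, rose from 11.3 FPKM at 0 h to 43.4 at 72 h and was at 18.8 at 96 h.

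Of the 13 other genes reported as BMP targets, 10 of 11 tested rose on re-seeding from 96 h without dox, beside 12.4% of all genes. With dox from 96 h, 8 of 11 fell, beside 11.1%, while Id4 was the 1 that rose, beside 6.67%. On re-seeding from 0 h without dox, 2 of 8 tested rose, beside 12.0% of all genes, and 5 fell, beside 10.1%. In the time course 2 of 8 tested rose at 96 h against 0 h, Dlx3 and Gata3, beside 16.8% of all genes, and 5 fell, beside 16.4%. Earlier, all 6 tested fell at each of 36, 48 and 60 h, beside 16.8%, 17.0% and 16.1% of all genes. Of these, Id4, Gata2, Tfap2a and Cdx2 were under 1 FPKM at each of the 3 times, as was Tbx3 at 48 and 60 h. They were tested through their 0 h value alone and could not have been called as rises. Dlx3, a homeobox gene, was at 2.17 FPKM at 96 h, 29.4 in the 96 h –dox and 9.55 in the 96 h +dox cells. Gata2 was at 2.67, 49.7 and 10.9 FPKM, and Hand1 at 0.590, 38.2 and 1.76 FPKM in these conditions. Tbx3, in contrast, was highest near pluripotency, at 51.5 FPKM at 0 h, 70.6 in the 0 h +dox cells and 1.81 FPKM at 96 h. Hand1 and Gata3 are also in the trophoblast list, as are Cdx2 and Tfap2a, so the lists are not separate.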

How the data were processed

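The authors mapped reads to mm10 with TopHat 2.0.14, quantified Gencode M4 transcripts with Cufflinks 2.2.1 and deposited FPKM values from Cuffdiff, 1 per gene and condition, which combine both replicates. Counts and replicate values were not used here, so there are no errors, tests or p-values and the depth is known only from steps between the lowest values. Table columns with the authors' calls of dynamic and dox-responsive genes were not used.

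Plain FPKM ratios were taken without a pseudocount, and ratios against 0 were left out. Genes tested had a higher value of at least 1 FPKM. A gene under 1 FPKM in 1 of the conditions compared could thus be called in 1 direction only. Likeness was Pearson's r of log2(FPKM + 1). The 10 members and the gene lists were chosen with earlier results of these data known. A listed gene was named when it reached 10 FPKM and ranged at least 4-fold, at most 4 per list, while signal Smads, E proteins and pluripotency markers could each be named. Id4 and Gata3 were named after their values were seen. Gene positions are from Gencode M21. The counting was tested on simulated data. Python 3.11.15, numpy 2.4.6, pandas 2.3.3 and matplotlib 3.10.9 were used. Alternatives covered the fold, the minimum, an added FPKM and the scaling.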

Additional observations from a re-analysis of the deposited data

Results flagged for a closer look

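Bmp4 is listed for the sign of its difference between re-seeded –dox cells and the cells before re-seeding, which was not the same at every starting time. The log2 ratio was 3.40 from 0 h, -2.34 from 24 h, 1.37 from 48 h and 2.39 from 96 h. The values on which it rests are 0.840 and 8.87 FPKM from 0 h and 6.11 and 1.21 FPKM from 24 h, before and after re-seeding. The difference between starting times was not tested, since each condition has 1 combined value.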

How the results depend on the processing

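Counts here are of genes summed over the comparisons of a kind. Against 0 h, 15 rises became 9 with a minimum of 5 FPKM and 8 with 1 FPKM required in both conditions, and 4 falls became 7 at 1.5-fold, 2 at 3-fold, 11 with no minimum, 2 with the minimum of 5 FPKM and 2 with 1 FPKM in both. From 72 to 96 h, 7 rises became 3 under each of these 2 minimums. Genes changed between any 2 timepoints went from 9 to 4 under each. With dox, 0 rises became 1 at 1.5-fold and 1 with no minimum, and 10 falls became 6 with 1 FPKM added to each value. On re-seeding, 1 fall became 3 with no minimum. The cause was not tested beyond what the settings leave out. Genes most like Id1, Id3 and Bmp4 went from 15 to 0 shared when the time course alone was used. The other 62 values of this kind stayed within 1.5 times. The log2 ratios of single genes, including those too low to be counted, were also recomputed. With 1 FPKM added, 37 moved by more than 1.5-fold and 111 did not. With 0.1 FPKM added, 15 moved and 133 did not, and with median-ratio scaling all 148 stayed. An equal amount added to both values cannot turn a direction, so these settings do not check it. Without the 0 h pair, an alternative chosen after seeing the data, 15 rather than 18 rises on re-seeding were counted. No paired analysis was possible because the columns hold 1 value per condition and carry no replicate, and leaving out replicates was not run for the same reason. Levels under about 0.1 FPKM rest on few steps.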

Other observations

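The E protein genes, whose products ID proteins bind, ranged less than the Id genes. Tcf3 lay between 39.0 and 85.1 FPKM, Tcf12 between 13.0 and 39.3 and Tcf4 between 6.16 and 27.8 over the 15 conditions. From 72 to 96 h, when Id1, Id2 and Id3 rose, Tcf4 was the 1 of the 3 that rose, from 13.3 to 27.8 FPKM, where 5.10% of all genes rose. With dox from 96 h 0 of 3 rose, where 6.67% of all genes did.

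Over the 15 conditions the 45 pairs of the 10 genes had Pearson's r of log2(FPKM + 1) from 0.26 (Id2 and Msx1) to 0.96 (Bmp2 and Msx2), with a median of 0.65. Id1 and Id2 had r = 0.94, and Id1 and Id3 r = 0.37. The conditions share cells and the 96 h –dox cells were highest for each gene, so these are descriptions without a p. Among 9062 other genes that reached 10 FPKM, those most like Id1 included Git1 (0.92), Wnt7b (0.91), Pink1 (0.90) and Blvra (0.90). Those most like Id3 were Mfn2 (0.93), Ppm1d (0.91), Pja1 (0.91), Zmym5 (0.91) and Usp6nl (0.90), and those most like Bmp4 were Prrg2 (0.90), Abhd6 (0.87), Chmp7 (0.86), Cry2 (0.85) and Stau1 (0.85). From the 7 timepoints of the time course alone, 0 of the 15 genes found over all conditions were found again.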
